A study of Homo sapiens with 6 samples.

Results

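The D-type cyclins (CCND1, CCND2 and CCND3) and the kinases they activate (CDK4 and CDK6) were followed as 5 genes chosen by name, of 52992 genes with a matched transcript. Of the 5, 4 passed the level minimum of a mean of 50 counts per library, which 11909 genes passed in all. CCND2 did not pass it. RNA came from J82, an established human bladder cancer line. One derivative, tet-ZFP36L1, overexpresses ZFP36L1 on doxycycline, and the other is its control, tet-control; both were near confluence when doxycycline was added. tet-ZFP36L1 cells were sampled without doxycycline (0 h) and after 6 and 24 h with it at 1 µg/mL. tet-control cells were sampled at the same 3 times, with doxycycline at 6 and 24 h as well. Each of the 6 groups had 1 library, and the labels do not say whether a line is 1 clone or a pool.

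D-type cyclins link growth signals to the cell cycle. Bound to CDK4 or CDK6, they phosphorylate the retinoblastoma protein RB1, which releases E2F transcription factors and lets the cell pass from G1 into S phase. Cyclin D mRNAs are short-lived, whereas the kinases are held at a steadier level and are limited by the INK4 inhibitors. ZFP36L1 is a protein that recruits the mRNA decay machinery to transcripts with AU-rich elements in the 3' UTR. CCND1 is a known cancer gene, and its locus is recurrently amplified in bladder cancer.

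The AU-rich motifs of the members are shown because such elements are what ZFP36L1 binds, and the members differ in how many they carry. The strings TATTTAT, a core AU-rich element of 7 bases, and ATTTA, its pentamer, were searched on the RNA strand of the 3' UTR, with overlapping copies counted. Each TATTTAT holds 1 ATTTA. For each gene the transcript with the highest mean TPM and a usable annotated 3' UTR was taken, and positions are on GRCh38 from GENCODE 29. CCND1 had 1 TATTTAT and 7 ATTTA in a 3' UTR of 3192 bases, and 5 of those 7 began between 1399 and 1547 bases after the stop codon. CCND3 had 0 and 2 in 1007 bases, CDK4 had 0 and 0 in 798 bases, CDK6 had 3 and 26 in 10219 bases, and CCND2 had 1 and 8 in 5341 bases. Of the CCND1 copies of ATTTA outside TATTTAT, only the one that began 1814 bases after the stop codon is printed. That copy lies outside the stretch from 1399 to 1547 bases. In the lines below, each read 5′ to 3′ on the coding strand, capitals mark the motif.
CCND1, TATTTAT, chr11:69652693-69652722, plus strand: ggctaaaaagtaTATTTATtgcagaggatg
CCND1, ATTTA, chr11:69653083-69653112, plus strand: tcttgtaatttttATTTAggaagtgttgaa
CCND3, ATTTA, chr6:41935498-41935527, minus strand: gggtccctctaaaATTTAatgcatgataga
CCND3, ATTTA, chr6:41935289-41935318, minus strand: aaggctcattttaATTTAttaattgctttg
CDK6, TATTTAT, chr7:92611230-92611259, minus strand: taaactcttagaTATTTATataattcaaaa
CDK6, TATTTAT, chr7:92607652-92607681, minus strand: attcatgtatgtTATTTATttctgaatcac
CDK6, TATTTAT, chr7:92605212-92605241, minus strand: tgaaaatgtaggTATTTATtgtcagatgat

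Longer 3' UTRs held the element more often. Of 10472 protein-coding genes whose 3' UTR reached 50 bases, 25.9% held TATTTAT. Genes of like length were those where the shorter 3' UTR of the pair was at least 0.8 times as long as the other. Among 971 genes of like length with CCND1, 57.2% held at least 1 copy. For CCND3 this was 24.5% of 1361 genes, and for CDK4 22.6% of 1324. For CDK6 it was 93.8% of 65 genes, and 44.6% held at least 3 copies. For CCND2 it was 73.9% of 440 genes. The median count of ATTTA among genes of like length was 6 for CCND1, 2 for CCND3, 1 for CDK4, 21 for CDK6 and 12 for CCND2. Per 1000 bases, ATTTA numbered 2.19 in CCND1, 1.99 in CCND3, 0 in CDK4, 2.54 in CDK6 and 1.5 in CCND2. The median over the 10472 genes was 1.34. A match is a description of the letters and not a binding site.

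**Figure D1:**
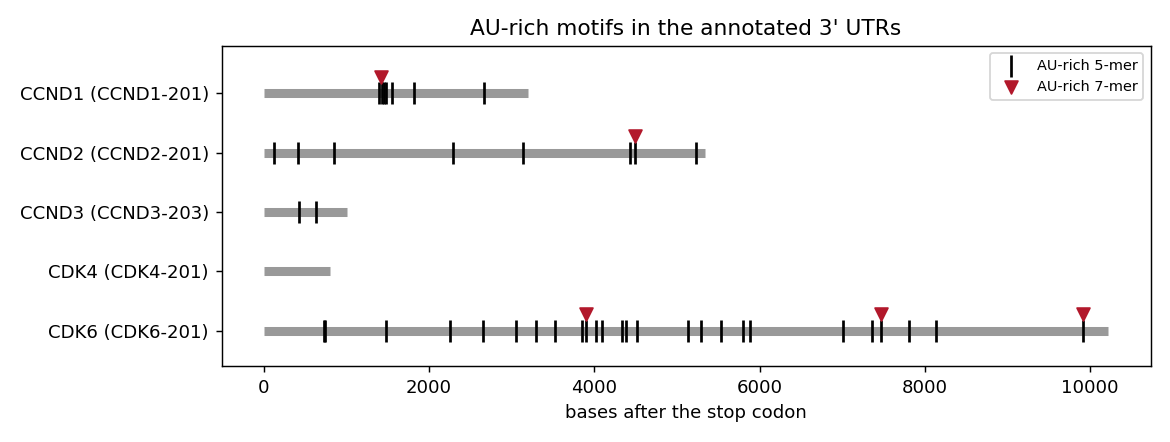
Annotated 3' UTRs of the 5 genes drawn to scale, with bases after the stop codon on the horizontal axis; black ticks are copies of the AU-rich pentamer and red triangles copies of the 7-base element. CCND1 has its single 7-base copy within a cluster of pentamers, CDK6 has 3 copies in 10219 bases, and CCND3 and CDK4 have 0.

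The libraries held 20739025 to 21380480 estimated counts each. ZFP36L1 measured 220.2, 3127 and 3133 CPM (counts per 1000000 counts, scaled by TMM) in tet-ZFP36L1 at 0, 6 and 24 h, against 233.8, 223.3 and 206.0 CPM in tet-control. Of 14 urothelial and epithelial markers, 5 were above 1 TPM in every library (KRT7, KRT8, KRT18, EPCAM and PPARG). The other 9, among them all 4 uroplakins, were below 1 TPM in every library, and UPK2 and UPK3A were listed at 0. All 4 mesenchymal markers were above 1 TPM. Their summed level was 1460 to 4000 TPM in tet-ZFP36L1 and 666 to 774 TPM in tet-control, and FN1 alone reached 2790 TPM in its highest library. The summed level of the 14 urothelial and epithelial markers was also higher in tet-ZFP36L1, at 1260 to 1630 TPM against 672 to 837 TPM in tet-control. The 5 leukocyte markers and the 3 matched endothelial markers were below 1 TPM in every library. The part of these marker levels in the results was not tested. In its TMM factor 1 library differed from the rest, tet-ZFP36L1 at 24 h, with 1.115 against 0.941 to 1.006, and every 24 h value carries this. With 1 library per group no test was run, intervals are 95% intervals of counting error only, and variation between cultures is not in them. In bulk RNA, fewer cells expressing a gene and less RNA per cell cannot be told apart.

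Per length, CDK4 and CCND1 were the most abundant members, CCND3 was lower, CDK6 lower still, and CCND2 was near 0. In deposited TPM, which allows levels of different genes to be compared, CDK4 stood at 406.9 TPM and CCND1 at 398.5 TPM in uninduced tet-ZFP36L1. Their ratio there was 1.02 (0.989 to 1.05), so over all transcripts their order was not resolved beyond counting error. CCND3 stood at 65.1 TPM and CDK6 at 18.9 TPM in that library. In the tet-control library at 0 h the ratio of CDK4 to CCND1 was 1.15 (1.11 to 1.18), and in all 6 libraries CCND3 stayed above CDK6. After induction the level of CDK4 was 2.58 times that of CCND1 (2.49 to 2.68) at 6 h and 3.65 times (3.51 to 3.79) at 24 h. In tet-control the same ratio was 1.06 (1.03 to 1.1) and 1.24 (1.2 to 1.28). The summed TPM of the D cyclins was 1.09, 0.437 and 0.354 times that of CDK4 and CDK6 together at 0, 6 and 24 h in tet-ZFP36L1, and 0.949, 0.996 and 0.882 times in tet-control. CCND1 made up 86.0%, 85.2% and 74.9% of D cyclin TPM in tet-ZFP36L1, and 88.1%, 84.7% and 87.4% in tet-control. These CCND1 levels include short noncoding transcripts, described below. From protein-coding transcripts alone, a choice made after seeing the data, CDK4 was above CCND1 in each library. The ratio was then 1.57 (1.52 to 1.62), 5.26 (5.07 to 5.47) and 6.52 (6.26 to 6.79) in tet-ZFP36L1, and 2.28 (2.21 to 2.36), 2.17 (2.09 to 2.25) and 2.17 (2.10 to 2.25) in tet-control. The ratio of D cyclins to CDK4 and CDK6 was 0.744, 0.247 and 0.227 in tet-ZFP36L1, and 0.518, 0.525 and 0.536 in tet-control. This choice leaves out short CCND1 transcripts but keeps short CDK4 ones, and TPM divides by length. In uninduced tet-ZFP36L1, CDK4-202 (1000 bases) and CDK4-203 (776 bases) stood at 189 and 173 TPM. CDK4-201 (2076 bases) stood at 18.0 TPM there, and CCND1-201 (4307 bases) at 255 TPM.

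For each gene, the change since 0 h of log2(CPM + 0.5) was taken in each line, and the change in tet-control was subtracted from that in tet-ZFP36L1 to give the induction difference. A gene was called lower or higher when this difference and the change in tet-ZFP36L1 itself were both at least 2-fold in that direction. Of the 4 measured members, 1 was lower at 6 h (CCND1) and the same 1 at 24 h, and 0 were higher at either time. Among all measured genes 2.54% were lower at 6 h and 4.97% at 24 h, and 0.739% and 2.74% were higher. The 6 h and 24 h changes of a line start at the same 0 h library, so the differences at these times are not independent of each other. With the deposited TPM the single member called at 6 h was CCND3 instead of CCND1.

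CCND1 encodes cyclin D1 (ENSG00000110092; GRCh38 chromosome 11, 69641087 to 69654474, plus strand) and had the lowest difference of the members at both times, except with the deposited TPM at 6 h, where CCND3 was at -1.28, CDK6 at -1.08 and CCND1 at -0.97. It measured 859.2, 310.0 and 221.1 CPM in tet-ZFP36L1 at 0, 6 and 24 h, against 705.5, 613.1 and 661.3 CPM in tet-control. Both induced libraries lay below every tet-control library, and the uninduced tet-ZFP36L1 library lay above all of them. Relative to 0 h in the same line, the levels at 6 and 24 h were 0.361 and 0.257 times in tet-ZFP36L1, and 0.869 and 0.937 times in tet-control. The induction difference was -1.27 (-1.32 to -1.21) at 6 h and -1.86 (-1.92 to -1.80) at 24 h. Only 2.28% of measured genes had a lower difference at 6 h and 0.655% at 24 h. The lines did not start level: tet-ZFP36L1 was 0.28 above tet-control at 0 h (0.25 to 0.32), which enters the difference. Set directly against tet-control, without the 0 h levels, CCND1 was at -0.98 (-1.03 to -0.94) after 6 h and at -1.58 (-1.63 to -1.53) after 24 h. A rule that also asked for 2-fold here did not call CCND1 at 6 h.

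CCND3 encodes cyclin D3 (ENSG00000112576; GRCh38 chromosome 6, 41934933 to 42050357, minus strand). It measured 72.8, 39.1 and 40.5 CPM in tet-ZFP36L1 at 0, 6 and 24 h, against 59.8, 56.9 and 51.5 CPM in tet-control. Here too the 2 induced libraries were the lowest of the 6 and the uninduced one the highest. The induction difference was -0.82 (-0.99 to -0.65) at 6 h and -0.62 (-0.79 to -0.46) at 24 h, short of 2-fold. At 1.5-fold in place of 2-fold CCND3 was lower at both times, as were 8.85% of all measured genes at 6 h and 14.3% at 24 h. Set directly against tet-control, CCND3 started at 0.28, with -0.54 (-0.67 to -0.40) after 6 h and -0.34 (-0.47 to -0.21) after 24 h. With the deposited TPM its 6 h difference passed 2-fold, as given above.

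CCND2, which encodes cyclin D2 (ENSG00000118971; chromosome 12, 4273772 to 4305350, plus strand), had 0 counts in each library except tet-ZFP36L1 at 24 h, which had 1. A count of 0 allows up to 3 counts, which is 0.147 and 0.156 CPM in the tet-ZFP36L1 libraries of 0 and 6 h, and 0.149 to 0.161 CPM in the tet-control libraries. No fold is given, since each library was under this limit. Its 3' UTR carries the AU-rich 7-base element at chr12:4304491-4304520, plus strand, and its sequence is given for comparison with that of CCND1.
CCND2, TATTTAT: gattcaagaggaTATTTATtacttcctcat

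CDK6, the partner kinase prominent in blood cells, differed at 6 h mainly through its level in tet-control (ENSG00000105810; chromosome 7, 92604921 to 92836594, minus strand). It measured 149.0, 158.2 and 118.8 CPM in tet-ZFP36L1 at 0, 6 and 24 h, against 167.6, 315.4 and 162.3 CPM in tet-control. The tet-control library at 6 h was far above the other 5, at 1.88 times its own 0 h level, and 7.47% of all measured genes were at least 1.5-fold higher in that library than at 0 h. In tet-ZFP36L1 the 6 h level was 1.06 times its 0 h level. The induction difference at 6 h was -0.82 (-0.92 to -0.73), made up of a change of 0.09 in tet-ZFP36L1 (-0.05 with the deposited TPM) and 0.91 in tet-control. At 24 h it was -0.28 (-0.38 to -0.18), with -0.33 in tet-ZFP36L1 and -0.05 in tet-control. Without TMM scaling the 24 h difference was -0.11, where the median of all genes was 0.15. Set directly against tet-control, CDK6 was at -0.17 at 0 h, -0.99 at 6 h and -0.45 at 24 h.

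CDK4, the main kinase partner here by level (ENSG00000135446; chromosome 12, 57747727 to 57756013, minus strand), was the most even member. It measured 238.2, 271.9 and 248.5 CPM in tet-ZFP36L1 at 0, 6 and 24 h, against 267.9, 225.4 and 250.6 CPM in tet-control. The values of the lines overlapped, and the levels at 6 and 24 h were 1.14 and 1.04 times the 0 h level in tet-ZFP36L1 and 0.841 and 0.935 times in tet-control. The induction difference was 0.44 (0.36 to 0.52) at 6 h and 0.16 (0.08 to 0.24) at 24 h, and 86.9% and 63.2% of measured genes had a lower one. CDK4 made up 95.6%, 96.2% and 96.7% of the summed CDK4 and CDK6 TPM in tet-ZFP36L1, and 95.7%, 89.6% and 95.6% in tet-control. Its exons overlap those of TSPAN31 on the other strand, and 38.6% of its 31-base words occur in another gene, so reads of CDK4 and TSPAN31 may not be separable and the CDK4 level is uncertain by that. TSPAN31 stood at 20.5, 30.7 and 24.0 CPM in tet-ZFP36L1 and 10.4, 10.9 and 10.3 CPM in tet-control. For CCND1, 9.23% of words were shared, nearly all with LTO1, which stood at 32.8, 27.0 and 21.3 CPM in tet-ZFP36L1 and 31.9, 39.0 and 39.9 CPM in tet-control.

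**Figure D2:**
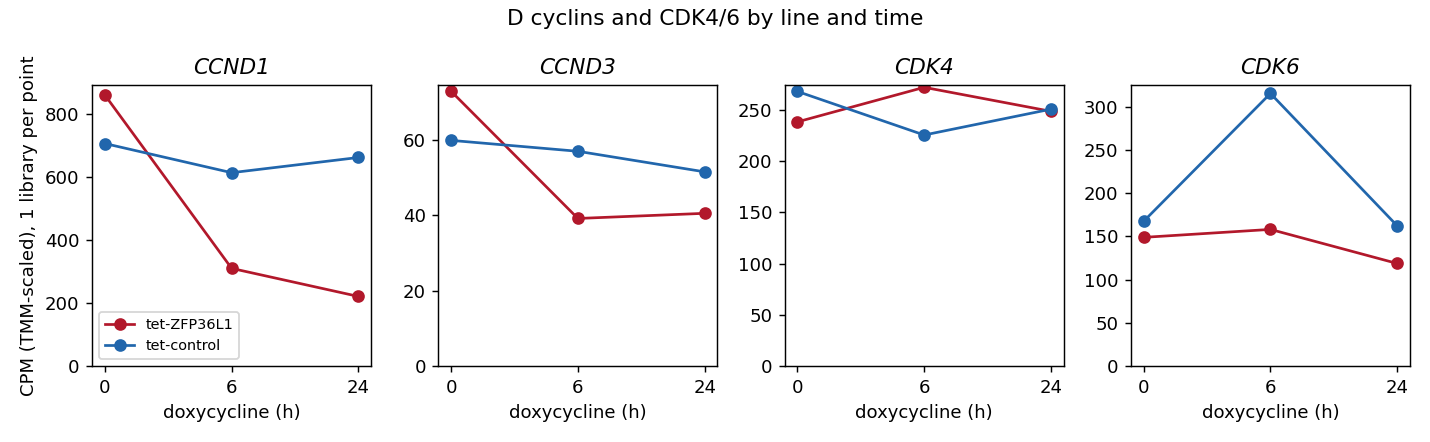
CPM of the 4 measured members at 0, 6 and 24 h with doxycycline (evenly spaced on the horizontal axis), with tet-ZFP36L1 in red and tet-control in blue, 1 library per point and a vertical axis from 0. CCND1 and CCND3 were lower at 6 and 24 h in tet-ZFP36L1, CDK4 stayed between 225.4 and 271.9 CPM, and CDK6 had its highest value, 315.4 CPM, in tet-control at 6 h.

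**Figure D3:**
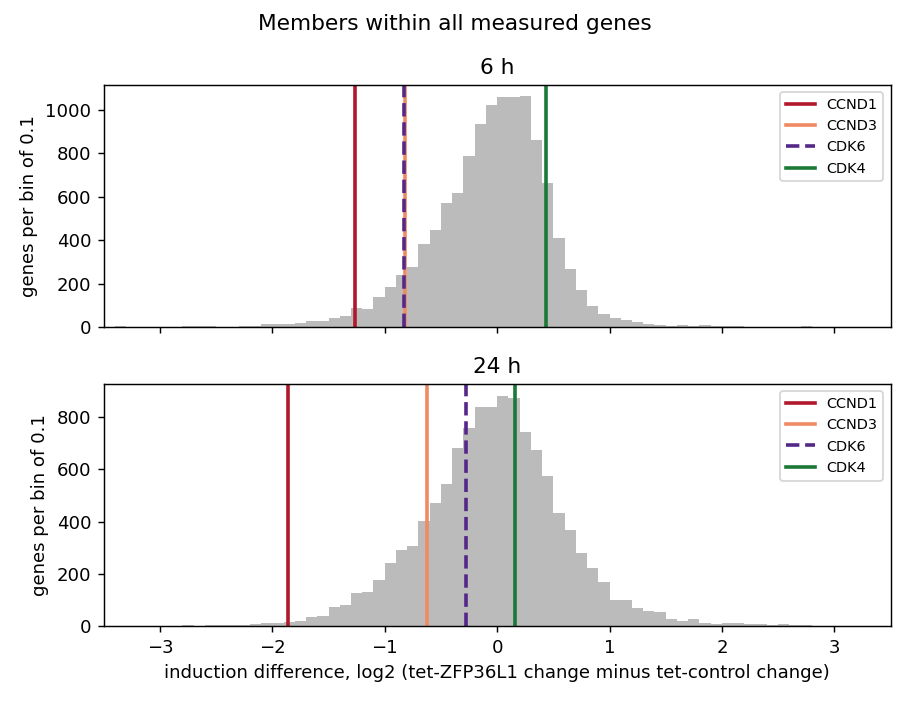
Induction differences of 11909 measured genes at 6 h (above) and 24 h (below) in bins of 0.1, with the members as vertical lines; a few genes lie beyond the axis limits. CCND1 lay at -1.27 and -1.86 in the lower tail, CCND3 at -0.82 and -0.62, CDK6 at -0.82 and -0.28, and CDK4 at 0.44 and 0.16, where the medians of all genes were -0.01 and -0.02.

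Transcript shares were examined because a change that went with the 3' UTR could differ between transcripts of one gene. kallisto assigns reads to transcripts by estimation, so shares are estimates, and their exact binomial intervals cover counting error only. In CCND1 the only abundant coding transcript was CCND1-201, which carries the 3' UTR of 3192 bases. It held 94.3% (93.9 to 94.6), 89.0% (88.2 to 89.8) and 90.2% (89.4 to 91.1) of the gene's estimated counts at 0, 6 and 24 h in tet-ZFP36L1. In tet-control it held 88.6% (88.1 to 89.2), 87.6% (86.9 to 88.2) and 91.2% (90.7 to 91.7). The share was highest in uninduced tet-ZFP36L1 and lower in both induced libraries, which lay within the range of tet-control. A coding transcript with a short 3' UTR, CCND1-203, held 0.0973% to 0.131% in tet-ZFP36L1 and 0.129% to 0.233% in tet-control.

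The remaining CCND1 reads were assigned mainly to the retained-intron transcripts CCND1-204 and CCND1-206. Their annotated 3' ends, at 69644188 and 69648143 on chromosome 11, lie upstream of every CCND1 motif printed above. CCND1-201 measured 810.2, 275.8 and 199.5 CPM in tet-ZFP36L1 at 0, 6 and 24 h, against 625.4, 536.9 and 603.0 CPM in tet-control. CCND1-204 stood at 31.59, 23.12 and 17.04 CPM in tet-ZFP36L1, against 60.0, 57.6 and 42.3 CPM in tet-control. Unlike CCND1-201, it was already lower in tet-ZFP36L1 than in tet-control at 0 h. CCND1-206 stood at 16.5, 9.76 and 3.97 CPM in tet-ZFP36L1, against 17.7, 15.7 and 13.8 CPM in tet-control.

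The full-length transcript lay further below its 0 h level than CCND1-204 did at both times, relative to tet-control. The induction difference of CCND1-201 was -1.33 (-1.39 to -1.27) at 6 h and -1.97 (-2.03 to -1.91) at 24 h. That of CCND1-204 was -0.38 (-0.59 to -0.18) and -0.37 (-0.59 to -0.15). The gap between these transcripts was -0.95 (-1.16 to -0.73) at 6 h and -1.60 (-1.82 to -1.37) at 24 h. CCND1-206 was at -0.56 (-0.89 to -0.23) at 6 h, a gap of -0.77 (-1.10 to -0.44). At 24 h it was at -1.59 (-1.97 to -1.21), and the interval of the gap, -0.76 to 0.01, took in 0. These gaps take in unequal 0 h levels, 31.59 against 60.02 CPM for CCND1-204. Directly against tet-control at 6 h, CCND1-204 (23.12 against 57.62 CPM) was proportionally further below than CCND1-201 (275.8 against 536.9 CPM). CCND1-206 (9.76 against 15.7 CPM) was less far below. At 24 h CCND1-201 (199.5 against 603.0 CPM) was further below than CCND1-204 (17.04 against 42.29 CPM). The gaps treat the transcripts' counts as independent, which estimation does not make them, and 22.1% of the 31-base words of CCND1-204 and 29.8% of those of CCND1-206 belong to that transcript alone. TPM divides by length, so these short transcripts weigh more in it: transcripts with no annotated 3' UTR held 5.61% of CCND1 counts but 35.4% of its TPM in uninduced tet-ZFP36L1. The CCND1 difference in TPM was smaller, at -0.97 and -1.44.

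**Figure D4:**
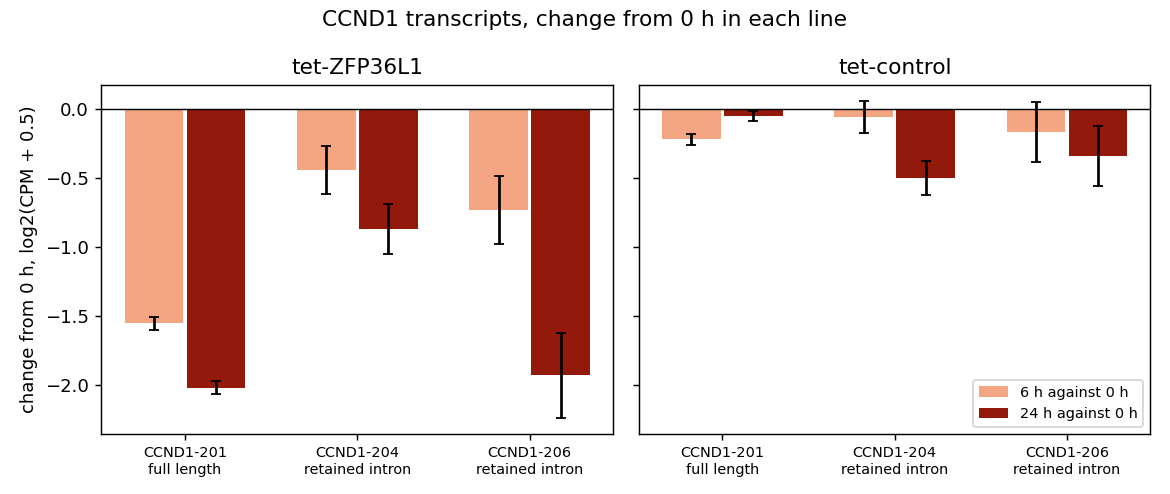
Change from 0 h, as log2(CPM + 0.5), of the 3 CCND1 transcripts with a mean of at least 50 counts, at 6 h (light) and 24 h (dark), with tet-ZFP36L1 on the left and tet-control on the right; error bars are 95% intervals of counting error. In tet-ZFP36L1, CCND1-201 changed by -1.55 and -2.02, CCND1-204 by -0.44 and -0.87 and CCND1-206 by -0.73 and -1.93; in tet-control the changes were -0.22 and -0.05, -0.06 and -0.50, and -0.17 and -0.34, in the same order.

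CCND3 counts were spread over transcripts that nearly all share the last exon. Transcripts whose 3' UTR had at least 0.5 times the length of the longest, 1007 bases, held 87.3%, 88.6% and 83.6% of CCND3 counts at 0, 6 and 24 h in tet-ZFP36L1, and 89.6%, 78.1% and 84.2% in tet-control. CCND3-203, with the longest 3' UTR, stood at 37.5, 19.0 and 13.7 CPM in tet-ZFP36L1, against 34.33, 31.40 and 27.97 CPM in tet-control, with differences of -0.84 (-1.07 to -0.60) and -1.13 (-1.38 to -0.89). CCND3-204, whose 3' UTR of 955 bases is nearly as long, was at 0.08 (-0.23 to 0.40) and -0.09 (-0.38 to 0.19). CCND3-213, with a 3' UTR of 416 bases, was at -2.10 (-2.59 to -1.60) and -1.03 (-1.51 to -0.55), with its own changes at -0.99 and -0.46 in tet-ZFP36L1 and at 1.11 and 0.57 in tet-control. CCND3-204 and CCND3-213 have 0.0% of their 31-base words to themselves and CCND3-203 has 5.16%, so these shares are weakly determined. As estimated, the differences did not follow 3' UTR length across the 3 transcripts. With so few words of their own, no conclusion is drawn from this.

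In counts, CDK6 was read almost wholly as CDK6-201, with the 3' UTR of 10219 bases. This transcript held 99.1%, 99.6% and 99.5% of CDK6 counts in tet-ZFP36L1 and 99.0%, 98.2% and 99.7% in tet-control. Its induction differences, -0.81 and -0.29, were close to those of the gene. In TPM, where short transcripts weigh more, it held 88.9%, 95.1% and 94.6% in tet-ZFP36L1 and 90.8%, 79.2% and 93.8% in tet-control. For CDK4 the 3' UTR comparison was limited. CDK4-202, which held 48.1% to 50.4% of CDK4 counts in tet-ZFP36L1 and 49.1% to 53.1% in tet-control, has 1000 bases in the deposited tables and 1650 in GENCODE 29, so no 3' UTR length was taken for it. CDK4-201, with a 3' UTR of 798 bases, held between 10.2% and 13.3% in each tet-ZFP36L1 library and between 9.63% and 12.3% in each tet-control library, counting intervals included.

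The other genes of the pathway were taken as 7 lists with 47 genes, of which 43 were measured. By the 2-fold rule 2 of the 43 were lower at 6 h (4.65%, against 2.54% of all measured genes) and 7 at 24 h (16.3%, against 4.97%), and 0 were higher at either time. The median difference over the 43 genes was -0.38 at both times, where that of all measured genes was -0.01 and -0.02. With a 2-fold gap from tet-control at that time also asked for, 1 was left at 6 h, without CDKN2D, and 6 at 24 h, without MNAT1. Of all 11909 measured genes, this added rule left 176 lower at 6 h and 385 at 24 h. Without it, both pathway genes lower at 6 h were kinase inhibitors, and those lower at 24 h were spread over 4 lists.

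Among 6 measured inhibitors of cyclin D kinases, 2 were lower at both times. CDKN2D, an INK4 inhibitor of CDK4 and CDK6, measured 15.4, 3.53 and 3.66 CPM in tet-ZFP36L1 at 0, 6 and 24 h, against 7.30, 5.46 and 8.76 CPM in tet-control. Its differences were -1.59 (-2.07 to -1.11) and -2.18 (-2.62 to -1.74). CDKN2D began 1.02 above tet-control at 0 h, and the direct gap between the lines was -0.57 (-0.96 to -0.17) after 6 h and -1.15 (-1.50 to -0.81) after 24 h. CDKN1A, which encodes p21, an inhibitor that also helps cyclin D and CDK4 assemble, stood at 83.1, 20.6 and 22.8 CPM in tet-ZFP36L1, against 48.9, 74.1 and 57.3 CPM in tet-control. Its differences were -2.58 (-2.77 to -2.39) and -2.07 (-2.25 to -1.88), of which 0.60 and 0.23 came from higher levels in tet-control. Set directly against tet-control it was at 0.76, -1.82 and -1.31 at the 3 times. The list's medians were -0.39 and -0.95. CDKN2A, which encodes the INK4 inhibitor p16, had differences of 0.29 and 0.23, and the differences of the 6 genes ranged from -2.58 to 0.29 at 6 h.

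Of 10 measured genes of the RB and E2F list, 0 were lower at 6 h and 1 was lower at 24 h. RB1, the main substrate of the cyclin D kinases, measured 208.8, 103.7 and 73.7 CPM in tet-ZFP36L1 at 0, 6 and 24 h, against 170.7, 168.9 and 173.7 CPM in tet-control. Its differences were -0.99 (-1.09 to -0.89) and -1.52 (-1.63 to -1.41), and at 24 h it was called lower, as was CCND1. TFDP2, an E2F dimerisation partner, was the highest of the list, at 0.62 (0.40 to 0.84) and 0.99 (0.80 to 1.18). At 6 h its level was below that of 0 h in both lines, with changes of -0.34 in tet-ZFP36L1 and -0.96 in tet-control, and at 24 h the changes were 0.60 in tet-ZFP36L1 and -0.39 in tet-control. E2F1, a transcription factor freed by RB1 phosphorylation, was at -0.93 and -0.80. The list's medians were -0.51 at 6 h and -0.53 at 24 h.

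Of 6 genes that act after the D cyclins, 0 were lower at 6 h and 2 at 24 h, CDK1 and CCNA2, and the medians were -0.45 and -1.09. CDK1, the kinase of mitotic entry, was at -0.52 and -1.42, and CCNA2, cyclin A2 of S phase, at -0.21 and -1.29. CCNE2, cyclin E2, had differences of -1.10 (-1.34 to -0.86) and -1.13 (-1.37 to -0.89), with own changes of -0.76 and -0.91 short of 2-fold. The CDK-activating kinase, which phosphorylates CDK4 and CDK6, has 3 subunits. Its assembly factor MNAT1 stood at 42.3, 20.9 and 16.6 CPM in tet-ZFP36L1, against 27.40, 32.80 and 30.98 CPM in tet-control, and it was lower at 24 h at -1.50 (-1.74 to -1.26). MNAT1 began 0.62 above tet-control, and its direct gap was -0.88 (-1.07 to -0.70) at 24 h, short of 2-fold. Cyclin H, encoded by CCNH, was also lower at 24 h, at -1.15 (-1.34 to -0.95), and the kinase CDK7 was at 0.09 and -0.19.

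Among 8 measured genes of D cyclin turnover, 0 were called at either time, and the medians were 0.13 and 0.17. AMBRA1, which directs a ubiquitin ligase to D cyclins, had differences of 0.71 (0.50 to 0.92) and 0.66 (0.46 to 0.86). FBXO31, an F-box protein that targets cyclin D1, had 0.54 (0.34 to 0.74) and 0.67 (0.47 to 0.86). Of 3 chaperone genes for the kinases, 0 were called, with medians of -0.24 and -0.72. HSP90AB1, an HSP90 isoform, was at -0.45 and -1.07, with an own change of -0.96 at 24 h, and began at -0.55 relative to tet-control. Of 7 measured upstream regulators 0 were called, with medians of -0.29 and -0.08. EGFR, a growth factor receptor upstream of CCND1, was at 0.38 (0.32 to 0.44) and 0.98 (0.92 to 1.04), and set directly against tet-control it was at -0.34, 0.04 and 0.64 at the 3 times. MYC was at -0.47 and -0.08, and directly at -0.71, -1.17 and -0.78.

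**Figure D5:**
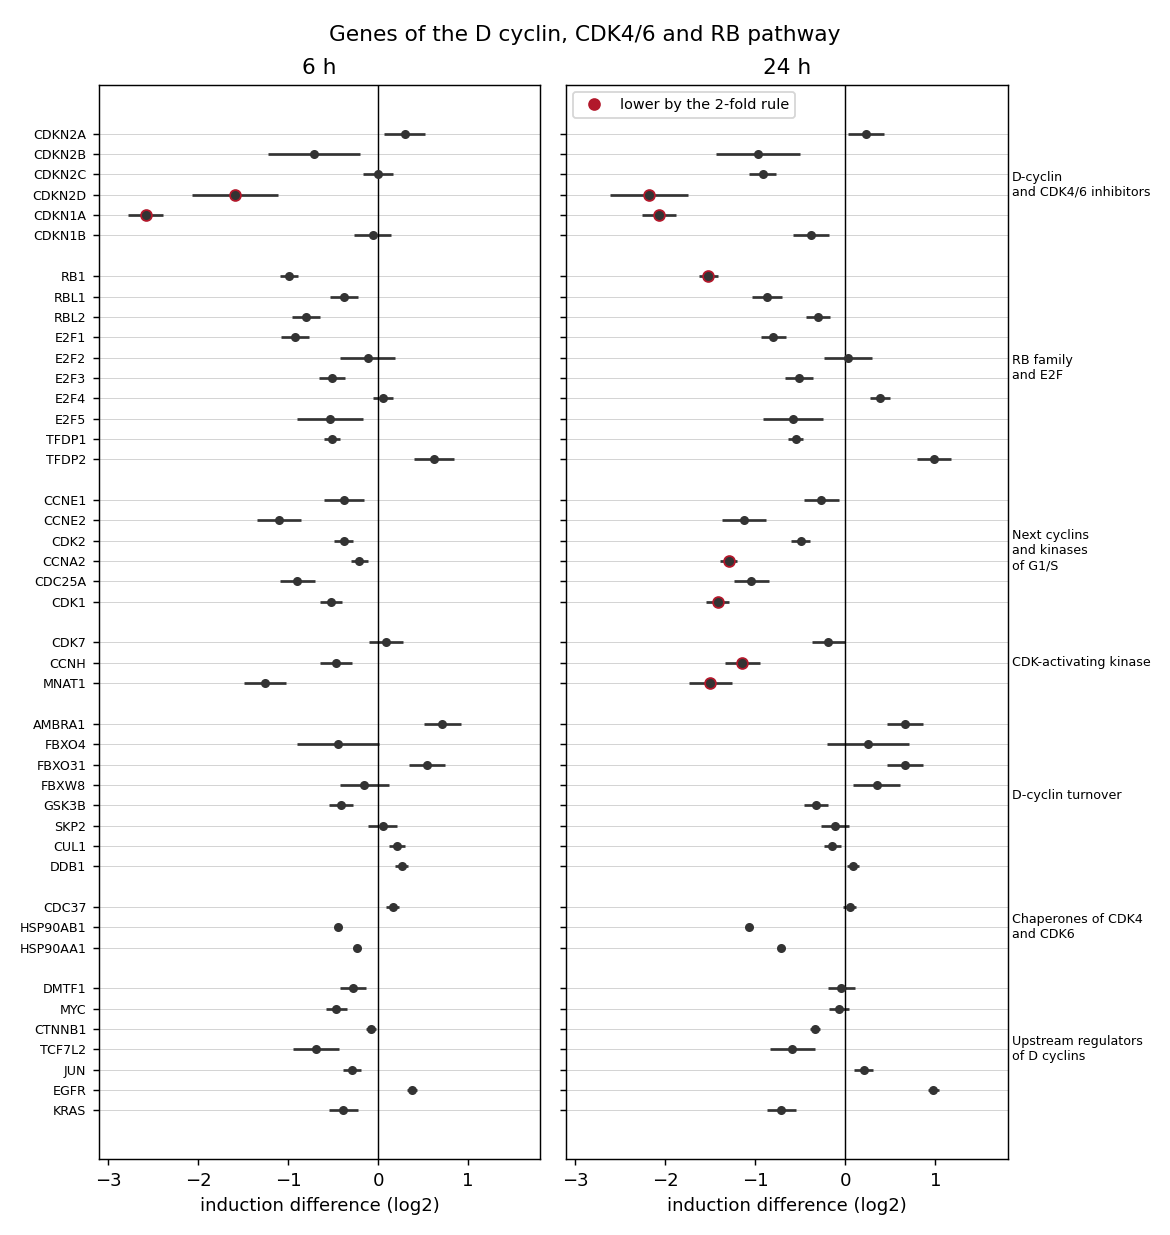
Induction differences (log2, points) with 95% intervals of counting error (lines) of 43 measured pathway genes at 6 h (left) and 24 h (right), grouped by list, with genes lower by the 2-fold rule in red. The 2 genes lower at 6 h are CDKN2D and CDKN1A, and at 24 h RB1, CCNA2, CDK1, CCNH and MNAT1 join them.

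The genes whose patterns were most like those of the members were sought among 9297 protein-coding genes with a mean of at least 10 CPM. Likeness was the root mean square distance between log2(CPM + 0.5) values centred over the 6 libraries. For CCND1 the nearest was DCK, deoxycytidine kinase, at a distance of 0.09, followed by KCTD9 at 0.11 and LMAN1 at 0.12, where the values of CCND1 themselves spread by 0.70 about their mean. DCK measured 52.05, 22.86 and 15.47 CPM in tet-ZFP36L1 at 0, 6 and 24 h, against 48.55, 42.70 and 46.37 CPM in tet-control. For CCND3 the nearest were ITPR3, an inositol trisphosphate receptor, at 0.05, and INSIG2 and RAB23 at 0.06. For CDK6 they were DUSP1 and NCBP3 at 0.10 and SMURF2 at 0.11. SMURF2, a ubiquitin ligase, stood at 475.6, 501.5 and 377.5 CPM in tet-ZFP36L1, against 571.5, 843.0 and 470.0 CPM in tet-control, highest like CDK6 in tet-control at 6 h. For CDK4 they were RNH1, C3orf38 and APMAP at 0.03, where CDK4 itself spread by 0.09.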

How the data were processed

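Total RNA from the 6 cultures was purified on columns, and libraries were read on a BGISEQ-500 instrument, per the labels' protocols. kallisto, DESeq2 and the build hg19 are named in the submitters' processing notes, and versions and strand settings are not given in the sources used here. The deposited estimated counts, which need not be whole, and the deposited TPM values, scaled for effective length and to 1000000 per library, are given for 196354 transcripts. Of these, 181857 matched GENCODE 29 (GRCh38) by identifier, and the 5.12% to 5.46% of counts in the others were left out. A 3' UTR was used only where the deposited length equalled that of GENCODE 29, as in 169443 transcripts. Shared 31-base words were searched among matched GENCODE 29 transcripts.

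Per gene, the estimated counts of all transcripts were added and rounded to whole numbers. TMM factors for CPM came from edgeR 4.0.16 (R 4.3.3), using genes that averaged at least 10 counts. Changes are on log2(CPM + 0.5), a scale that understates those of low genes. A gene was measured if it averaged at least 50 counts. Intervals are 95% delta-method intervals, and shares have exact binomial ones; reads are not independent molecules. The calling rule was run on simulated counts with planted changes, equal 0 h levels in the lines and counting error only. That run cannot show how the rule behaves under variation between cultures. Members, lists and rules were chosen with earlier results of these data known. Genes named are the members, ZFP36L1, overlapping genes (added later), the 3 nearest patterns per member, and the 2 largest differences per list and time; CDKN2A and CDK7 were named after their values were seen. Alternatives were DESeq2 1.42.0 size factors, plain CPM, TPM, pseudocounts of 0.1 and 5, other count minimums, a 1.5-fold threshold, a 2-fold gap between the lines as well, and coding transcripts alone. Python 3.11.15 was used.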

Additional observations from a re-analysis of the deposited data

Results flagged for a closer look

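CDK4 is listed because its change ran in opposite directions in the lines at both times, each beyond counting error with TMM scaling. At 6 h the change was 0.19 (0.13 to 0.25) in tet-ZFP36L1 and -0.25 (-0.31 to -0.19) in tet-control, a difference of 0.44. At 24 h it was 0.061 (0.005 to 0.117) in tet-ZFP36L1 and -0.10 (-0.15 to -0.04) in tet-control, a difference of 0.16. The 24 h change in tet-ZFP36L1 was 0.048 with DESeq2 size factors and 0.209 with plain CPM, so its size depended on the scaling. The differences were not tested, since each group has 1 library.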

How the results depend on the processing

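No paired analysis was possible because each group has 1 library, and no library could be left out for the same reason. For CCND1 the 24 h difference was -1.69 with plain CPM, which moved the median of all genes at 24 h to 0.15. With the deposited TPM its differences were -0.97 and -1.44, and with coding transcripts alone -1.33 and -1.97. The members called lower were 2 at each time at 1.5-fold, and 0 at 6 h when a 2-fold gap between the lines at that time was also asked for; the 24 h call of CCND1 held under every alternative run. Of the members, TPM called CCND3 alone at 6 h. Over all genes, those lower at 6 h (303) numbered 139 with a pseudocount of 5, 1054 at 1.5-fold and 176 with the added 2-fold rule. Those higher at 6 h (88) numbered 41, 364 and 49 under these, 163 with a mean count of at least 10 and 195 with no filter. Those lower at 24 h (592) numbered 384 with plain CPM, 366 with a pseudocount of 5, 1708 at 1.5-fold and 385 with the added rule. Those higher at 24 h (326) numbered 110 with a pseudocount of 5, 1125 at 1.5-fold, 527 with a mean count of at least 10 and 606 with no filter. Plain CPM gave 488 higher and TPM gave 404 lower and 390 higher at 24 h. For CCND3, CDK4 and CDK6, 30 of 36 alternative differences stayed within the counting interval, and the sign was the same in all 36. Of the 48 alternative shares by 3' UTR length, 36 moved beyond counting error; asking for at least 1000 bases put CCND3 at 53.1%, 49.8% and 33.7% at 0, 6 and 24 h in tet-ZFP36L1, and 57.7%, 56.5% and 54.3% in tet-control. Coding transcripts alone, a choice added after seeing the data, keep short CDK4 transcripts. The CDK4 to CCND1 ratio was then 1.57 to 6.52 in tet-ZFP36L1 and 2.17 to 2.28 in tet-control. Shares of TPM differ from shares of counts by definition, since TPM divides by length. The rule of at least 1000 bases put CDK4 at 0.0% in each library, since its longest usable 3' UTR has 798 bases. The cause of the other moves was not tested.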
